A study of Mus musculus with 18 samples.

Results

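The undeleted controls of a mouse skin study are described here as a baseline for resting back-skin epidermis: all samples labelled as controls were taken, which are 7 of the 18 mice measured. The study removed Rbpj or Notch1 from skin in adult mice with 2 tamoxifen-inducible Cre drivers. K14-CreERT is driven by a promoter of the basal layer, and Lrig1-CreERT2 is active in upper hair follicle cells. Each of the 3 deletion strains had its own controls, and RNA was sequenced from 1 library per mouse.

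The KR controls (controls 4 and 6) belong to the strain with K14-CreERT and floxed Rbpj, the KN1 controls (controls 1 and 7) to the strain with K14-CreERT and floxed Notch1, and the LR controls (controls 2, 3 and 5) to the strain with Lrig1-CreERT2 and floxed Rbpj. All groups shared tamoxifen at 8 weeks of age and removal of dorsal skin 10 weeks later, as the labels describe it for the mice in general. The labels name each control only by the strain it was matched to. The sources used here do not say whether a control carried Cre, a floxed allele or neither, nor its strain background. Each control group came from 1 cage batch (batch 2 for KR, batch 3 for KN1, batch 1 for LR), so, with mutants and controls of a strain sharing a batch or litter, a difference between control groups and a difference between cage batches cannot be told apart.

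Epidermis is a stratified sheet of keratinocytes. Basal cells attached to the basement membrane make the keratins Krt5 and Krt14, cells that leave the basal layer switch to Krt1 and Krt10 and build desmosomes, and the outermost living cells deposit loricrin and other proteins of the cornified envelope. Notch receptors and their nuclear partner Rbpj take part in the switch from basal to suprabasal identity. Hair follicles, sebaceous glands, melanocytes, Langerhans cells and resident T cells share the compartment, and in telogen, the resting phase, the follicle has no hair-producing matrix or inner root sheath.

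Total counts ran from 8299785 to 21216169 per control library. KR control 4 and KN1 control 1, the deepest, each merge reads of 1 mouse from 2 sequencing occasions, and KR control 6, KN1 control 7 and LR control 5 carry a second name ending in 2, like the repeat runs, with no occasion stated. These 3 are called second-named below. By Xist and 4 Y-linked genes KR control 4, KN1 control 1 and LR control 5 were female and the other 4 mice male. Transcripts of the growing hair went against the telogen label in 2 libraries. Krt71, a keratin of the inner root sheath, had 0.517 and 133 CPM (library-scaled counts, with TMM factors) in KR controls 4 and 6, 0.448 and 0.212 CPM in KN1 controls 1 and 7, and 125, 0.33 and 0.262 CPM in LR controls 2, 3 and 5. KR control 6 and LR control 2 were thus apart from the other 5, and counts are also given without them. Within a group, gene counts of 2 mice were further apart than counting error gives (chi-square per degree of freedom from 6.41 to 50.6), so none was counted as a repeat of another. Every p-value below reflects the spread over separate mice, some of which may be littermates.

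Keratins led the baseline transcriptome. Levels of different genes were compared as TPM (length-scaled shares of all transcripts), computed from counts and exon length for 15591 genes that held 95.7% to 96.3% of counts. Krt10, the type I keratin of suprabasal cells, was the highest protein-coding gene at 23779.5 ± 4149 TPM (SD, n = 7). It was followed by Krt77, a suprabasal type II keratin of mouse skin, at 19736 ± 1164 TPM and by Krt5, the type II keratin of basal cells, at 17090.1 ± 1069 TPM. Lor, the main protein of the cornified envelope, averaged 13500.2 ± 6709 TPM, Krt15, a keratin of basal and bulge cells, 12867 ± 1276 TPM, and Krt14, the partner of Krt5, 10090.2 ± 1287 TPM. By TPM, Krt77 and Krt5 varied little, with a highest mouse 1.2 and 1.17 times the lowest. Their spread was wider in TMM-scaled CPM, the scale used for stability and tests below. There Krt77 ran from 15151 in LR control 5 to 26528 in KN1 control 7. Krt5 ran from 10899 in LR control 3 to 16720 in KN1 control 7. Lor varied most among these 6: it had 11551 and 7931 TPM in KR controls 4 and 6, 24666 and 12454 TPM in KN1 controls 1 and 7, and 17884, 15745 and 4270.03 TPM in LR controls 2, 3 and 5, so KN1 control 1 was 5.78 times LR control 5. Both KN1 mice lay above both KR mice for Lor, and the LR mice overlapped each of these groups.

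The 25 genes of highest mean TPM held 22 protein-coding genes and 3 annotated as microRNA genes. Of the 25, 6 were keratins (Krt10, Krt77, Krt5, Krt15, Krt14 and Krt17), 4 were ribosomal proteins (Rplp1, Rplp0, Rps15 and Rps3a1) and 3 were mitochondrial (mt-Co1, mt-Nd1 and mt-Cytb). The others included Apoe, a lipid carrier, at 9378 ± 1703 TPM, the elongation factors Eef1a1 and Eef2 at 9259 ± 1777 and 4401 ± 647 TPM, and Lgals7, a galectin of stratified epithelia, at 6754 ± 2300.2 TPM. Dmkn, Krtdap and Perp, which are secreted or desmosomal proteins of differentiating epidermis, averaged 5646 ± 600.4, 4625 ± 1406 and 5305 ± 419 TPM. The 25 highest protein-coding genes held between 19.8% and 23.3% of all TPM in a mouse, and 17 genes were among the 25 highest protein-coding genes in each of the 7 mice. Of these genes mt-Co1 spread widely: it had 12444 and 19535 TPM in KR controls 4 and 6, 5662 and 5484 TPM in KN1 controls 1 and 7, and 6692, 6761 and 16988 TPM in LR controls 2, 3 and 5.

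**Figure D1:**
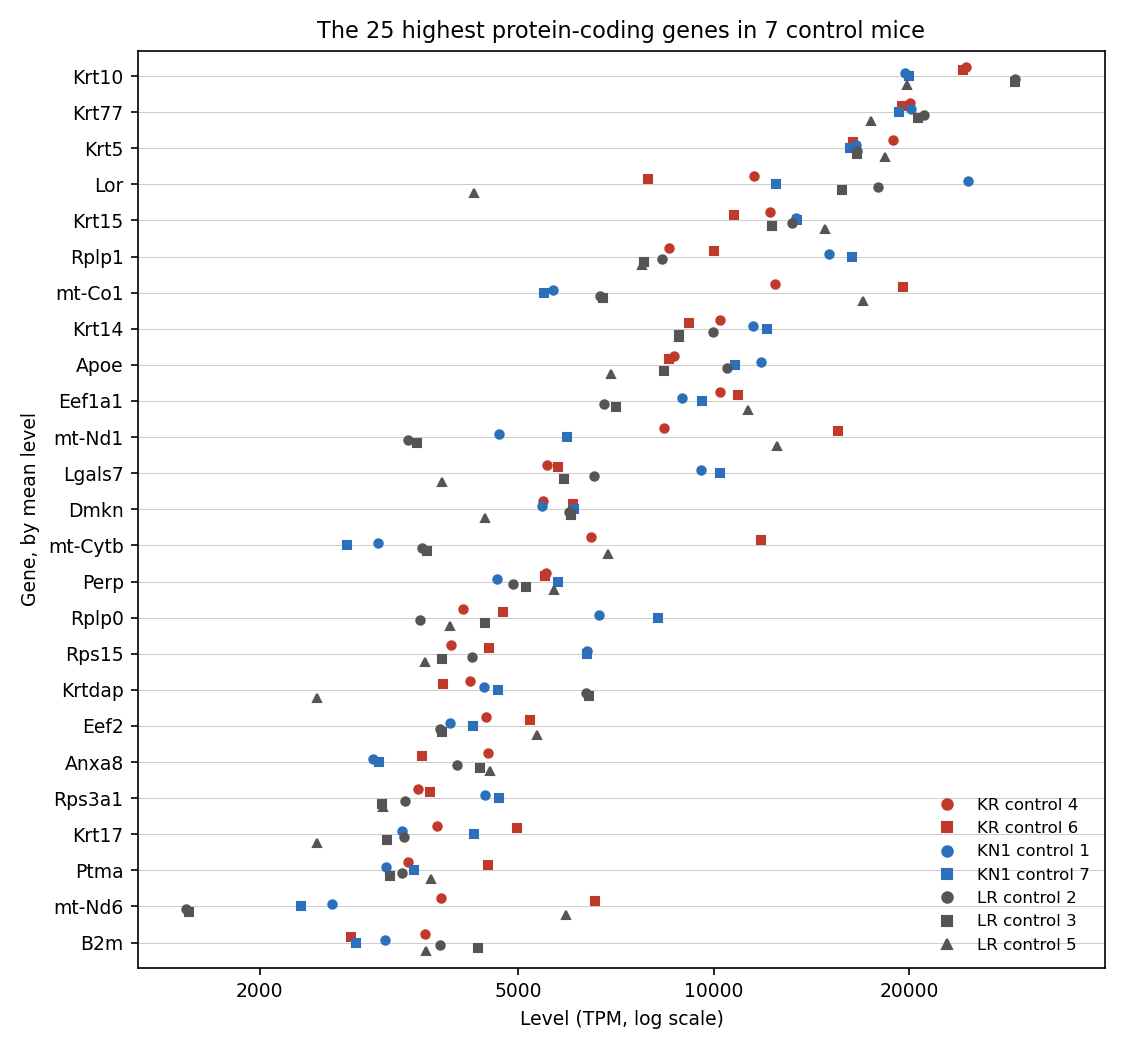
Level in TPM (horizontal log axis) of the 25 protein-coding genes of highest mean, with 1 point per control mouse and colours for the KR, KN1 and LR controls. Krt77 and Krt5 form tight columns, while Lor spreads 5.78-fold and mt-Nd1 4.59-fold between its lowest and highest mouse.

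The 2 highest rows of the table by TPM were short features that overlap or resemble other RNA, and their values were not read as microRNA levels. Gm44323 spans 129 bases of chromosome 15 (101710274 to 101710402, plus strand, GRCm38) inside Krt5, which lies on the minus strand, and was listed at 51198 ± 4140 TPM. The sources used here do not say if counting used strand, and without it Krt5 reads cannot be told apart from Gm44323 reads. Gm23935, with 57 bases on chromosome 16, was listed at 39672 ± 24190.1 TPM. When genes with under 200 bases of exon were left out, 22 of the 25 names stayed. By CPM, with no length correction, 15 of the 25 stayed.

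The marker content was that of epidermis with upper follicle, bulge and sebaceous gland. The basal, suprabasal and granular keratinocyte lists together held 80.9% ± 2.0 (SD, n = 7) of the TPM over all marker lists. The lowest and highest mice were LR control 5 with 77.2% and LR control 3 with 83.1%. This share does not separate interfollicular from follicle keratinocytes. Without KR control 6 and LR control 2 the share was 80.7%. Summed levels were 60555 ± 7127 TPM for 10 suprabasal markers, 30040.0 ± 1403 TPM for 13 basal markers, 16145 ± 7038 TPM for 17 granular and cornified envelope markers, 13366.5 ± 1284 TPM for 10 bulge markers, 6415 ± 1209 TPM for 9 upper follicle markers and 2856 ± 400.2 TPM for 16 sebocyte markers. Krt15 supplied nearly all of the bulge sum and is also made by basal cells. More specific bulge markers were lower, with Cd34 at 35.0 TPM, Lhx2 at 65.4 TPM and Lgr5 at 8.09 TPM on average. In bulk RNA, fewer cells of a type and less RNA per cell cannot be told apart.

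Among non-keratinocytes, the Langerhans cell list was highest at 1466 ± 601 TPM over 10 markers, led by the antigen presentation genes Cd74 at 631 TPM and H2-Ab1 at 319 TPM. The 16 markers of epidermal T cells summed to 242 ± 76.9 TPM, with Trdv4, the delta chain segment of the dendritic epidermal T cell receptor, at 28.7 TPM and Cd3g at 19.9 TPM. Among markers of other lymphocytes, Foxp3 averaged 5.48 TPM, Trac 5.31 TPM, Cd8a 2.49 TPM and Cd4 0.776 TPM, all lower than Trdv4. By CPM, with no length correction, Trdv4 was at 4.42, Foxp3 at 9.01, Cd8a at 3.14, Trac at 1.77 and Cd4 at 1.05. The distance from Trdv4 thus depended on the scale. Melanocyte markers summed to 61.7 ± 25.7 TPM, led by Pmel, a melanosome protein, at 28.2 TPM. Schwann cell markers summed to 33.9 ± 11.6 TPM, of which Mbp, a myelin protein, gave 31.8 TPM.

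Markers of the dermis and deeper skin were low. Fibroblast markers summed to 34.0 ± 8.29 TPM, of which Fbln1 gave 23.5 TPM, while the collagens Col1a1 and Col1a2 averaged 3.98 and 3.13 TPM and Pdgfra, a fibroblast receptor, 0.2 TPM. Endothelial markers summed to 5.02 ± 2.78 TPM, muscle markers to 12.1 ± 3.28 TPM, Merkel cell markers to 4.36 ± 1.14 TPM and adipocyte markers to 0.831 ± 0.664 TPM. Erythroid markers summed to 47.6 ± 15.5 TPM, nearly all from Hba-a1 at 44.6 TPM. The 6 mast cell markers have no row in the table and were not analysed here, as were 4 of 11 macrophage and neutrophil markers and 4 of 6 adipocyte markers.

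The follicle lists gave the widest range between mice. Summed over the 9 inner root sheath markers, TMM-scaled CPM was 11.996 and 487 in KR controls 4 and 6, 11.9 and 10.4 in KN1 controls 1 and 7, and 501, 12.6 and 9.2 in LR controls 2, 3 and 5. The 14 hair matrix and shaft markers followed the same mice, with 25.7 and 146 CPM in the KR controls, 22.5 and 15.4 CPM in the KN1 controls and 166, 15.6 and 8.9 CPM in the LR controls. Granular and cornified envelope markers also spread widely, at 8824 and 7219 CPM in the KR controls, 20887 and 13096 CPM in the KN1 controls and 12291, 10661 and 3661 CPM in the LR controls. The sum of the basal markers stayed close. It was 26747 and 25006 CPM in the KR controls and 29288 and 32642 CPM in the KN1 controls. In the LR controls it was 24649, 23880 and 27310.2 CPM. Single basal markers varied more: for 2 of the 13 the highest mouse was within 1.5 times the lowest (15.4%, against 18.2% of all genes with a mean of at least 10 CPM). The 15 cell cycle genes summed to 459 and 729 CPM in the KR controls, 434 and 567.8 CPM in the KN1 controls and 438, 396 and 485 CPM in the LR controls. KR control 6, 1 of the 2 libraries with hair-forming transcripts, was thus highest in cell cycle genes, while LR control 2, the other, lay within the range of the remaining mice.

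**Figure D2:**
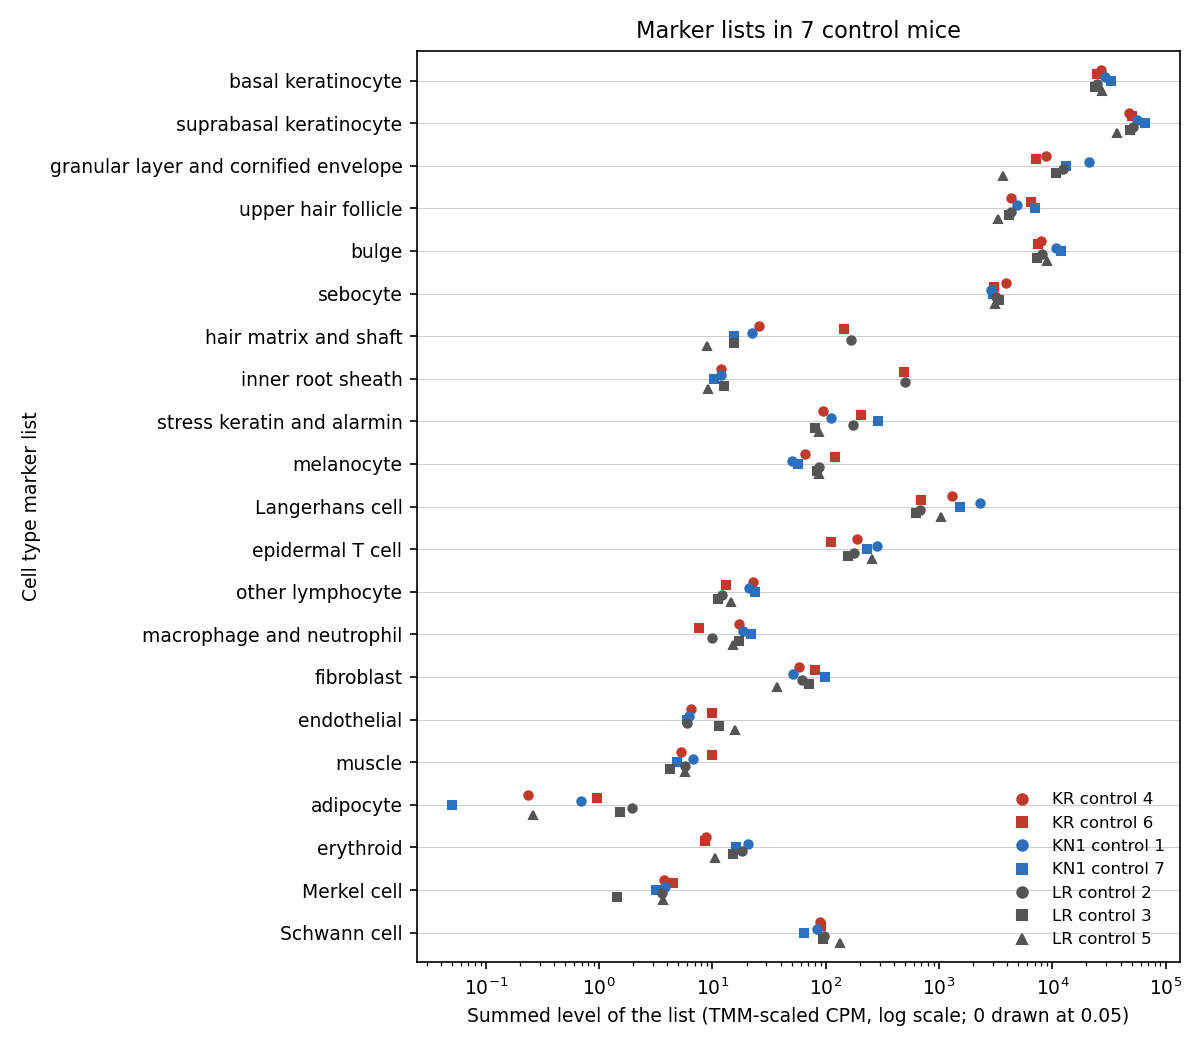
Summed level of each cell type marker list in each control mouse, in TMM-scaled CPM on a log axis (0 is drawn at 0.05), with lists down the page and colours for the KR, KN1 and LR controls. Inner root sheath and hair matrix lists split KR control 6 and LR control 2 (487 and 501 CPM in the inner root sheath list) from the other 5 mice, while the basal list stays between 23880 and 32642 CPM.

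Genes that stayed level across mice were searched among the 9806 genes with a mean of at least 10 CPM. The highest mouse was within 1.5 times the lowest for 1788 genes (18.2%) and within 2 times for 5505 genes (56.1%). It was at least 4 times the lowest for 470 genes and at least 10 times for 64 genes. Without KR control 6 and LR control 2, 2327 genes stayed within 1.5 times, and without KN1 control 7, 2691 did, 1.5 times as many as with it. The median coefficient of variation (CV, SD over mean) was 22.9%.

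Among genes with a mean of at least 50 CPM the lowest CV was that of Gnpat, an enzyme of ether lipid synthesis, at 3.96%. It had 61.8 and 56.0 CPM in the KR controls, 56.1 and 56.2 CPM in the KN1 controls, and 58.3, 55.1 and 58.0 CPM in the LR controls. Its CV was close to the 3.89% that counting error alone gives at these depths. Scap, which escorts the sterol-sensing transcription factors, had 264 and 246 CPM in the KR controls, 257 and 281 CPM in the KN1 controls, and 258, 269 and 256 CPM in the LR controls (CV 4.32%). Ephb6, an ephrin receptor without kinase activity, was the highest of the 15 most stable genes, at 531 ± 25.96 CPM (CV 4.89%). The other 12 were Ccdc71, Arhgap1, Trpc4ap, Ap2a1, Zfp703, Gpc1, Slc4a2, Sart3, Qars, Rufy1, Afg3l2 and Oplah, with a CV of at most 5.09%. These 15 were chosen by the values that describe them, so no test applies.

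Genes often used as references did not all stay level. Of 28 such genes 8 stayed within 1.5 times (28.6%, against 18.2% of the 9806 genes). The CV was 8.15% for Rab7, an endosomal GTPase, 9.95% for Tbp and 11.7% for B2m, but 20.96% for Gapdh and 22.6% for Actb, about the median gene. Rplp0, a ribosomal stalk protein, had 2213 and 2699.6 CPM in the KR controls, 4613 and 6395 CPM in the KN1 controls, and 1835, 2196 and 1924 CPM in the LR controls (CV 55.3%). Both KN1 mice were above all others. Ribosomal protein genes as a list had a median CV of 35.9%, and none of the 79 with a mean of at least 10 CPM stayed within 1.5 times. Mitochondrial genes had a median CV of 59.5%, and none of the 13 did.

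The widest spreads belonged to genes that 1 or a few mice carried. Bgn, the matrix proteoglycan biglycan, had 12.2 and 112 CPM in the KR controls, 6.17 and 5.5 CPM in the KN1 controls and 9.03, 5.62 and 6.28 CPM in the LR controls, so KR control 6 alone was high (CV 177%). Cyp2g1, a cytochrome P450, had 118 and 1.4 CPM in the KR controls, 152 and 0 CPM in the KN1 controls and 1.16, 2.64 and 1.92 CPM in the LR controls. The 2 mice with Cyp2g1 were both female and both merged libraries, while LR control 5, the third female, was at 1.92 CPM. Xist, the RNA that silences an X chromosome, was 231 and 128 CPM in the females KR control 4 and KN1 control 1, against 745 CPM in the female LR control 5. Eno1b had 1.08 and 79.3 CPM in the KR controls, 0.647 and 1.38 CPM in the KN1 controls and 33.6, 57.8 and 0.785 CPM in the LR controls, which is high in 3 of the 4 males and in no female. Gjb2, the gap junction protein connexin 26, had 8.42 and 63.3 CPM in the KR controls, 8.16 and 11.96 CPM in the KN1 controls and 22.7, 5.84 and 7.94 CPM in the LR controls. Its 2 highest mice were those with hair-forming transcripts, as for Krt25, Krt27, Krt71 and Tchh among the 15 most variable genes.

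**Figure D3:**
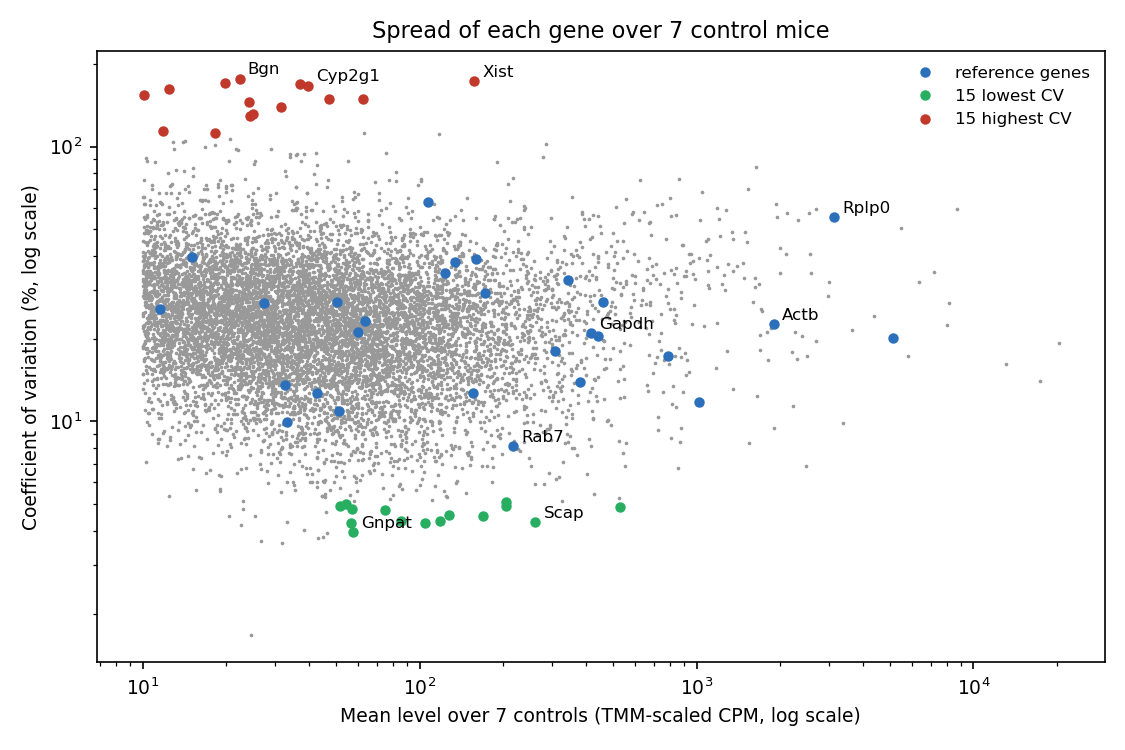
Coefficient of variation over the 7 controls (vertical log axis, percent) against mean level (horizontal log axis, TMM-scaled CPM) for the 9806 genes with a mean of at least 10 CPM as grey points, with the 15 of lowest CV among genes with a mean of at least 50 CPM, the 15 of highest CV and 28 reference genes in colour. Reference genes lie on both sides of the median of 22.9%, with Rab7 at 8.15% and Rplp0 at 55.3%.

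Differences among the 3 control groups were tested over 15908 genes with the quasi-likelihood F test of edgeR and Benjamini-Hochberg adjustment at 0.05. The test over all 3 groups called 1213 genes (7.63% of those tested; 31.3% had an unadjusted p under 0.05). KN1 controls differed most from LR controls, with 1224 genes higher (7.69%) and 1321 lower (8.3%), together 16% of genes tested. An unadjusted p under 0.05 held for 34.3% of genes and groups that did not overlap for 50.7%. KR controls differed from LR controls at 10 genes (0.0629%), of which 1 was higher (0.00629%) and 9 lower (0.0566%), while 2040 genes (12.8%) had an unadjusted p under 0.05. They differed from KN1 controls at 17 genes (0.107%), of which 3 were higher (0.0189%) and 14 lower (0.088%), while 3811 genes (24%) had an unadjusted p under 0.05. With 2 or 3 mice a group these counts moved widely with single mice. KN1 against LR gave 6 genes without KN1 control 7, 44 without LR control 3, 1048 without KN1 control 1, 1423 without KR control 4 and 1519 without KR control 6, and 1989 without the 2 mice with hair-forming transcripts. KR against LR gave 480 genes without LR control 5, 2 without KR control 6, and 0 without LR control 2, LR control 3, KN1 control 1 or KN1 control 7 and with sex as a covariate. In those 5 fits 1051 to 2302 genes had an unadjusted p under 0.05, and DESeq2 on all 7 mice called 361. KR against KN1 gave 2435 genes without LR control 5, 28 without LR control 2, 9 without KR control 6 and 4 without KN1 control 7. The test over all 3 groups gave 12 genes without KN1 control 7, 21 without LR control 3, 108 without KN1 control 1, 166 without KR control 6, 366 without KR control 4 and 3501 without LR control 5. LR controls 2 and 3 were the closest pair of mice, with 5.01% of genes over 2-fold apart, and LR control 5 and KN1 control 7 the farthest, with 31.5%.

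Dsc2 was the gene with an ordinary symbol that was called in KN1 against LR and over the 3 groups in every one of the 16 alternatives run. It encodes desmocollin 2, a desmosomal cadherin. Dsc2 had 69.1 and 59.2 CPM in the KR controls, 5.67 and 8.36 CPM in the KN1 controls, and 89.2, 103 and 148 CPM in the LR controls. Both KN1 mice lay far under all others. In the edgeR test it fell by 4.04 ± 0.30 on the log2 scale in KN1 against LR (SE, adjusted p = 0.00094) and was 3.21 ± 0.30 higher in KR against KN1 (adjusted p = 0.0035). The other desmosomal genes, chosen after their values were seen, moved less. Dsg2, desmoglein 2, had 111 and 113 CPM in the KR controls, 48.4 and 51.3 CPM in the KN1 controls and 94.2, 107 and 200.1 CPM in the LR controls (edgeR log2 change −1.43 ± 0.31 in KN1 against LR, adjusted p = 0.020). Dsg3 was also lower in KN1 than in LR (−1.38 ± 0.34, edgeR adjusted p = 0.029). Dsc3, the main desmocollin of basal cells, changed by −0.32 ± 0.20 (edgeR adjusted p = 0.27), and Dsc1, of suprabasal cells, by −0.09 ± 0.25 (edgeR adjusted p = 0.82), neither past the threshold. Another 5 genes, known by clone identifiers alone, were also called in every alternative of KN1 against LR. Of them RP23-179K7.3 had 4.89 and 7.02 CPM in the KR controls, 110.2 and 79.6 CPM in the KN1 controls and 8.22, 7.49 and 4.19 CPM in the LR controls.

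Cytosolic ribosomal protein genes were higher in KN1 than in LR controls. The elongation factor Eef2 was not called in KN1 against LR (edgeR log2 change 0.48, adjusted p = 0.13). Of 81 cytosolic ribosomal protein genes tested 74 rose in KN1 against LR and none fell, with a median log2 change of 0.97 against −0.04 over all genes tested (background 7.69% of genes higher). Rplp1, a stalk protein, had 1380 and 1715 CPM in the KR controls, 3134 and 3823 CPM in the KN1 controls and 1302, 1160.06 and 1145 CPM in the LR controls (edgeR log2 change 1.53 ± 0.18, adjusted p = 0.0075). Rpsa had 1545 and 1744 CPM in the KR controls, 3069 and 4111 CPM in the KN1 controls and 895, 1044 and 1190 CPM in the LR controls (edgeR log2 change 1.78 ± 0.20, adjusted p = 0.0056). For both genes the KN1 mice lay above all KR and LR mice. The count of ribosomal protein genes called was 0 without KN1 control 7 and 4 without LR control 3, with medians of 0.90 and 0.95, and 63 without the 2 mice with hair-forming transcripts. Transcript length moved with this comparison: the genes higher in KN1 had a median exon length of 2420 bases, against 4363 bases over all tested genes with a length. For the lower genes 76.5% had a length, under the 80% set for this check, so it was not judged for them. The median of those with a length was 8247 bases. The part of length in the higher and lower calls of KN1 against LR was not tested.

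By TMM-scaled CPM, antigen presentation genes were also higher in KN1 than in LR controls. Of 10 Langerhans cell markers 7 rose in KN1 against LR and none fell, with a median log2 change of 1.26 (7.69% of all genes tested were higher, with a median of −0.04). Cd74, the invariant chain of class II molecules, had 404 and 233 CPM in the KR controls, 789.8 and 520.5 CPM in the KN1 controls and 188, 182 and 380.5 CPM in the LR controls (edgeR log2 change 1.39 ± 0.36, adjusted p = 0.033). Cd207, the langerin of these cells, had 29.9 and 9.75 CPM in the KR controls, 32.7 and 36.3 CPM in the KN1 controls and 10.9, 13.2 and 17.0 CPM in the LR controls (edgeR log2 change 1.33 ± 0.39, adjusted p = 0.048). KR control 4 lay near the KN1 mice for Cd207, and KR control 6 below all LR mice. By TPM the groups overlapped: the 10 markers summed to 2555 and 1497 TPM in KN1 controls 1 and 7. They summed to 1800 and 896 TPM in KR controls 4 and 6 and to 960, 948 and 1608 TPM in LR controls 2, 3 and 5. The separation of the groups thus depended on the scale. The count of Langerhans cell markers called was 0 without KN1 control 7 or LR control 3, 1 without KN1 control 1, 2 without LR control 2 and 7 without the 2 mice with hair-forming transcripts. Of 16 epidermal T cell markers 1, Cd3d, was called higher in KN1 against LR (6.25%, near the 7.69% of all genes tested). Of the 16, 13 had a positive log2 change, with a median of 0.76. In KR against KN1 none was called, and all 16 were negative with a median of −0.97, against −0.01 over all genes tested.

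Basal keratinocyte genes went both ways. Of 13 markers 1 was higher and 4 were lower in KN1 against LR, where 7.69% of all genes tested were higher and 8.3% lower. Krt14 had 5834 and 5531 CPM in the KR controls, 8446 and 9974 CPM in the KN1 controls, and 5498, 4635 and 4598 CPM in the LR controls (edgeR log2 change 0.91 ± 0.17, adjusted p = 0.016). The lower ones attach basal cells to the basement membrane. Col17a1, the hemidesmosomal collagen, had 3150 and 2853 CPM in the KR controls, 1732 and 1865 CPM in the KN1 controls and 3356, 3566 and 4488 CPM in the LR controls (edgeR log2 change −1.08 ± 0.19, adjusted p = 0.014). Lama3, a laminin chain, changed by −1.41 ± 0.31, Itga6 by −0.95 ± 0.25 and Itgb4 by −0.67 ± 0.19. None of these 5 was called without KN1 control 7 or without LR control 3, 1 marker was called without KN1 control 1, and 3 were without KR control 4 or KR control 6. Other calls in the marker lists were few: Krt17 and Cst6 of the upper follicle, Cd34 of the bulge, Calm4 of suprabasal cells, Apoc1 of sebocytes and Fbln1 of the fibroblast list were higher in KN1 than in LR. Kprp of the cornified envelope, Mc5r of sebocytes and Pmel of melanocytes were lower.

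**Figure D4:**
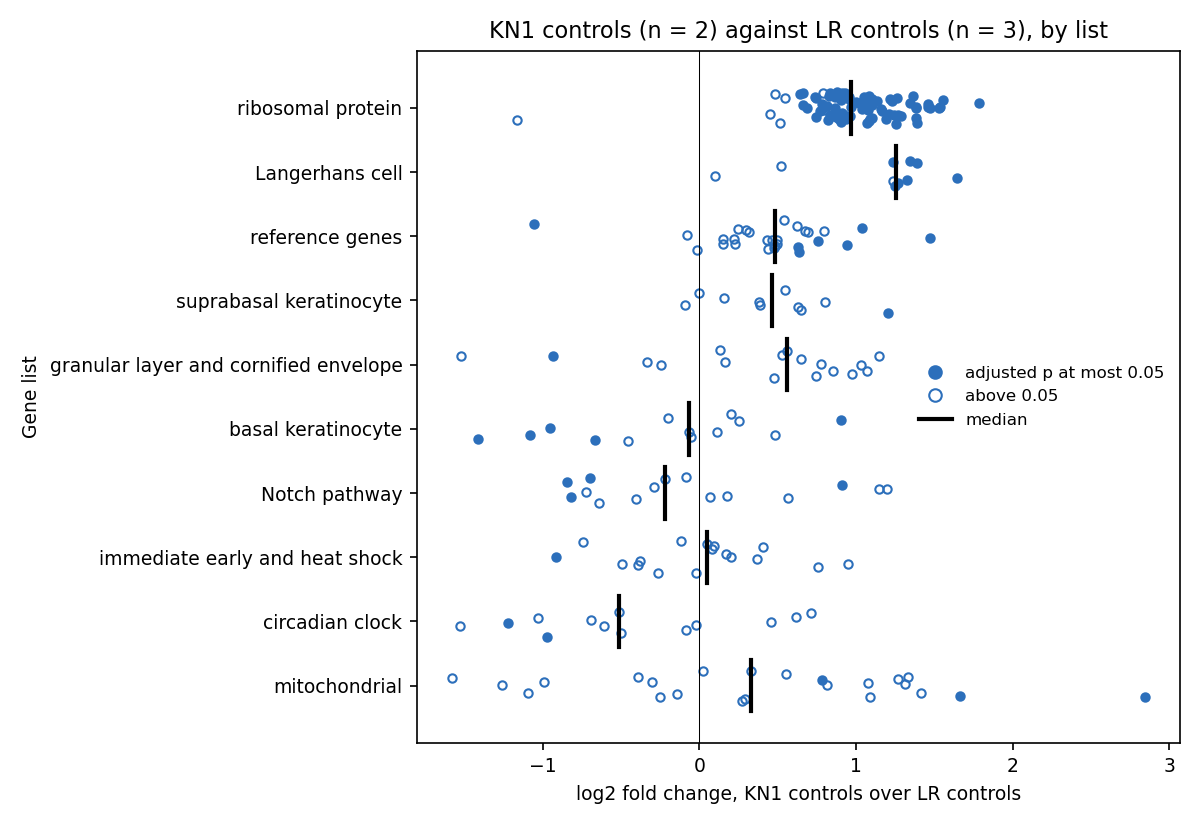
The log2 fold change of each gene in 10 lists between the KN1 controls (n = 2) and the LR controls (n = 3), with filled points for adjusted p at most 0.05 and a black bar at each list's median. The ribosomal protein list sits to the right with a median of 0.97 and the Langerhans cell list with 1.26, while basal and Notch pathway genes straddle 0. Clock genes lie mostly to the left, with a median of −0.51.

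The genes deleted in the mutants were present in each control. Rbpj had 56.6 and 59.3 CPM in the KR controls, 41.6 and 43.1 CPM in the KN1 controls and 41.8, 42.2 and 71.3 CPM in the LR controls, with no pairwise difference past the threshold. Notch1 had 333 and 318 CPM in the KR controls, 245 and 168 CPM in the KN1 controls, and 338, 371 and 402 CPM in the LR controls (edgeR log2 change −0.84 ± 0.20 in KN1 against LR, adjusted p = 0.027). Both KN1 mice were below the other 5. Notch2 and Notch3 were also lower in KN1 than in LR, by −0.82 ± 0.24 and −0.70 ± 0.16, and Lfng, a glycosyltransferase that modifies Notch receptors, was higher by 0.91 ± 0.20. These were the 4 calls among 15 Notch pathway genes tested, where 16% of all genes tested were called. None of the 15 was called without KN1 control 7 or LR control 3, 1 was without KN1 control 1 or KR control 4, and 2 were without KR control 6. Among target genes Hes1 changed by 0.56 ± 0.25 (edgeR adjusted p = 0.14) and Nrarp by 0.07 ± 0.26 (edgeR adjusted p = 0.88) in KN1 against LR.

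Of the 10 genes called in KR against LR 9 were lower in KR, among them Fosb, Per1, Hbegf and Ptbp2. Fosb, an AP-1 transcription factor induced within minutes of a stimulus, had 253 and 166 CPM in the KR controls, 648 and 708 CPM in the KN1 controls, and 1316, 1578 and 944 CPM in the LR controls (edgeR log2 change −2.61 ± 0.28 in KR against LR, adjusted p = 0.039). Per1, a clock gene that light, hormones and cyclic AMP also induce, had 196 and 129 CPM in the KR controls, 314 and 390.0 CPM in the KN1 controls and 648, 693 and 727 CPM in the LR controls (edgeR log2 change −2.08 ± 0.23, adjusted p = 0.039). For both genes the 3 groups did not overlap, which in KR against LR held for 32.9% of genes tested. Both were also lower in KN1 than in LR, by −0.92 for Fosb and −0.97 for Per1 (edgeR adjusted p = 0.043 and 0.022). Hbegf, a growth factor of the EGF family, had 18.5 and 11.2 CPM in the KR controls, 48.0 and 82.7 CPM in the KN1 controls and 82.6, 96.6 and 66.2 CPM in the LR controls (edgeR log2 change −2.45 ± 0.32, adjusted p = 0.039). Ptbp2, a splicing repressor, had 10.2 and 8.34 CPM in the KR controls, 11.6 and 8.78 CPM in the KN1 controls and 39.3, 40.3 and 28.7 CPM in the LR controls, so LR stood apart from both other groups. The calls of Fosb, Per1, Hbegf and Ptbp2 were lost with the sex covariate and without KR control 6, LR control 2, LR control 3, KN1 control 1 or KN1 control 7, with adjusted p between 0.058 and 0.34 in edgeR. Hbegf and Ptbp2 were also lost without KR control 4, Hbegf with the share covariate, and Per1, Hbegf and Ptbp2 without the 2 mice with hair-forming transcripts. Of 17 immediate early and heat shock genes Fosb was the 1 called in KR against LR, where 0.0566% of all genes tested were lower. Of the 17, 16 had a negative log2 change, with a median of −1.23 against −0.00 over all genes. Of 13 clock genes Per1 was the 1 called in KR against LR, beside the same 0.0566% of all genes tested. Of the 13, 12 were negative with a median of −0.42. In KN1 against LR 2 of the 13 were called, Per1 and Per2, both lower, where 8.3% of all genes tested were lower. There 10 were negative, with a median of −0.51. All 17 immediate early and heat shock genes also had a negative coefficient for the second-named naming described below. Of these 2 (Ier2 and Ier3) were called, where 0.886% of all genes tested were lower. The part of the naming in the difference of KR and LR was not tested.

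The bases before the start sites of Fosb and Per1 are shown because both genes were called in KR against LR and are known to be induced through cyclic AMP or clock factors. The sequences are RefSeq's, GRCm38.p6, 180 bases that end just before the start, 5′ to 3′ on the gene's strand. Capitals mark TGACG, the core of the cyclic AMP response element, and CACGTG, the E-box bound by clock proteins, searched on both strands. Per1 has 2 starts in that table. The stretches are chr7:19310046-19310225 (minus strand), chr11:69098769-69098948 and chr11:69099972-69100151 (plus strand).
Fosb: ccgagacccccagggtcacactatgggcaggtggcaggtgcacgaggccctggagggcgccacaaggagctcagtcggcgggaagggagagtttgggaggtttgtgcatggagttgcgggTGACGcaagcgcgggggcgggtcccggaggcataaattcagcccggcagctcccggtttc
Per1, start 1: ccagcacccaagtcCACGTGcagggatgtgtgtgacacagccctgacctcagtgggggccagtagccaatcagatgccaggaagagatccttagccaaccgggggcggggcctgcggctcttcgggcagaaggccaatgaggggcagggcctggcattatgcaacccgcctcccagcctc
Per1, start 2: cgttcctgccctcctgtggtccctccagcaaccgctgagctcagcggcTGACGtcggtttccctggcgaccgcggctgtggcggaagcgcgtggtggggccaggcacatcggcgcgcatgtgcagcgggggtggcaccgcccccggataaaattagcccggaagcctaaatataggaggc
TGACG began 60 bases before the start of Fosb and 132 bases before the second start of Per1, and CACGTG 166 bases before the first start of Per1. Over 250 bases before each of 32851 starts in the table, TGACG was in 17.8% and CACGTG in 6.02%. Counted per gene, TGACG was before at least 1 start of 9 of the 14 immediate early and heat shock genes that the table holds and of 3 of its 12 clock genes, against 19.8% of all 27025 genes. CACGTG was before at least 1 start of 4 of the 12 clock genes and of 2 of the 14 immediate early and heat shock genes, against 6.86% of all genes. A match is a description of the letters and not of a bound site.

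KR and KN1 controls differed at 17 genes, of which 14 were lower in KR. Thbd, thrombomodulin, had 41.1 and 38.2 CPM in the KR controls, 7.96 and 7.62 CPM in the KN1 controls, and 10.4, 14.3 and 20.1 CPM in the LR controls (edgeR log2 change 2.34 ± 0.31 in KR against KN1, adjusted p = 0.025). The 2 KR mice were above all others. Hmgn2, a nucleosome-binding protein, had 31.1 and 36.4 CPM in the KR controls, 116 and 107.5 CPM in the KN1 controls and 40.5, 38.8 and 33.1 CPM in the LR controls (edgeR log2 change −1.73 ± 0.20, adjusted p = 0.0099). Cd59a, an inhibitor of complement, had 23.2 and 28.4 CPM in the KR controls, 88.8 and 91.9 CPM in the KN1 controls and 29.5, 36.6 and 49.0 CPM in the LR controls. Rgs2, a regulator of G-protein signalling, had 38.7 and 27.05 CPM in the KR controls, 112 and 104 CPM in the KN1 controls and 60.1, 75.6 and 53.7 CPM in the LR controls. Hmgn2, Cd59a and Rgs2 were thus high in the KN1 mice, with KR and LR mice near each other for Hmgn2. Morn3 had 1.08 and 0.351 CPM in the KR controls, 7.46 and 6.77 CPM in the KN1 controls and 5.9, 5.18 and 6.28 CPM in the LR controls, which sets the KR mice apart. Groups did not overlap for 60.2% of genes tested in KR against KN1.

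**Figure D5:**
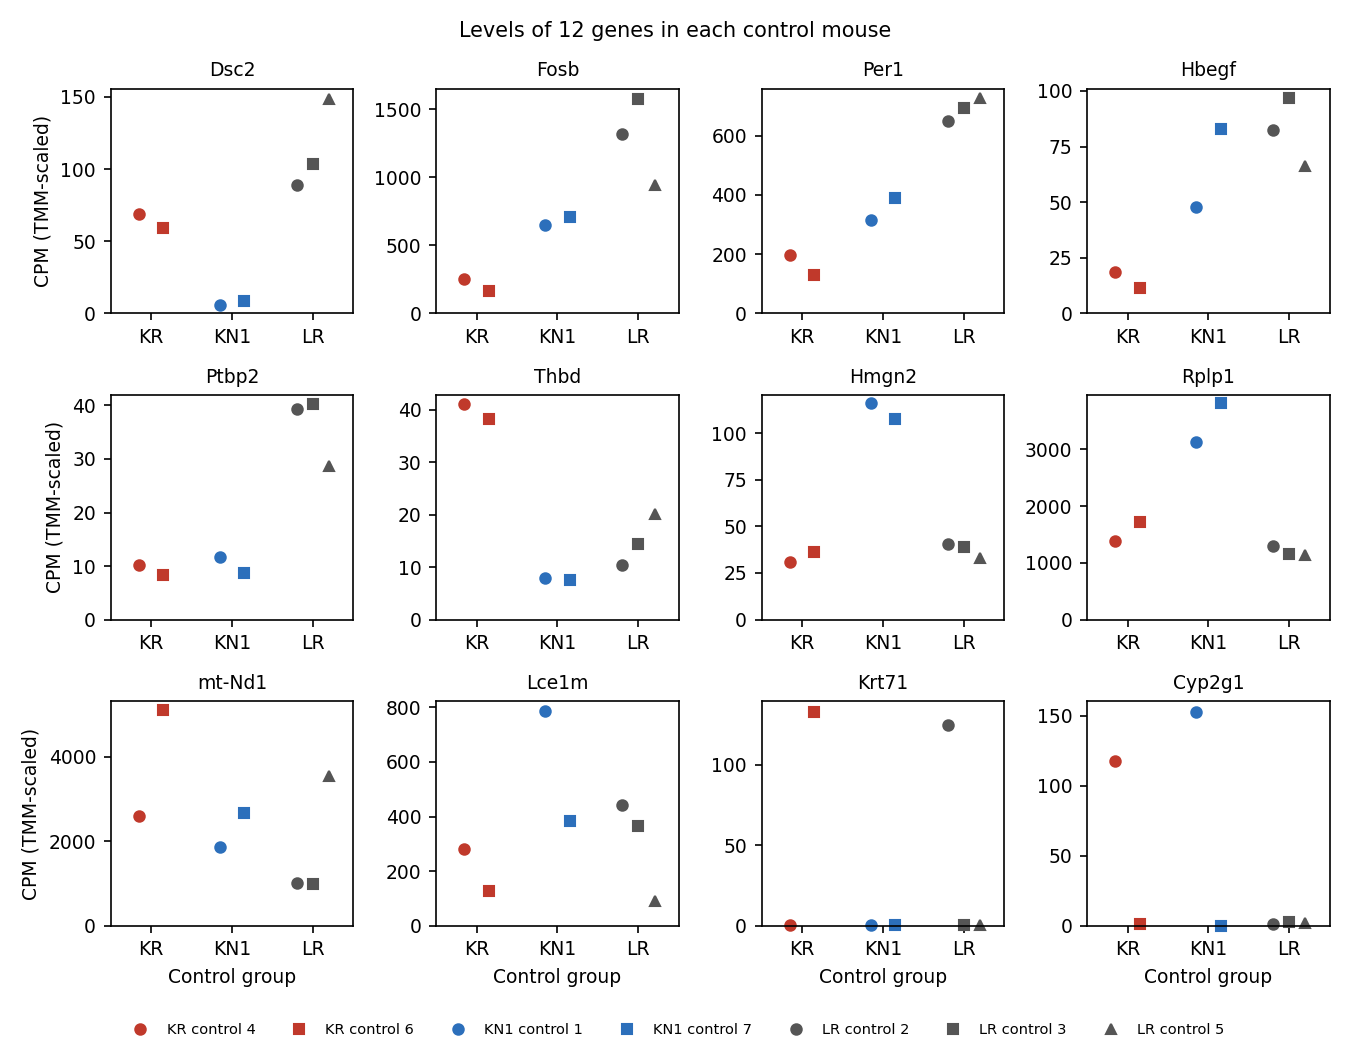
Level of 12 genes in each control mouse in TMM-scaled CPM on linear axes from 0, with the KR, KN1 and LR controls from left to right. Dsc2 is low in both KN1 mice (5.67 and 8.36 CPM), Fosb, Per1 and Hbegf are low in both KR mice, and Krt71 and Cyp2g1 are each carried by 2 mice of different groups.

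Libraries also differed by their naming within the groups. One coefficient for how far a library was second-named (0 for 1 plain name, 0.5 for merged, 1 for second-named) was fitted beside the 3 group means. It called 191 genes (1.2% of those tested; 22.4% had an unadjusted p under 0.05), 50 higher (0.314%) and 141 lower (0.886%). The count was 1 without LR control 2 or LR control 3, the only plain libraries, 33 without KR control 4, 44 without KR control 6, 1395 without either KN1 control and 0 without the 2 mice with hair-forming transcripts. With 0 called there, 1145 genes had an unadjusted p under 0.05, and the same fit with sex as a covariate on all 7 mice called 1478, and DESeq2 1167. The share was fitted because earlier results of these same data had shown mitochondrial counts to differ with it. The mitochondrial values therefore describe a known pattern and are no separate support for it. Of 23 mitochondrial genes 11 rose with the share and none fell, with a median of 1.49 per unit on the log2 scale against 0.01 over all genes. mt-Nd1, a subunit of respiratory complex I, had 1016 and 997 CPM in the plain LR controls 2 and 3, 2603 and 1871 CPM in the merged KR control 4 and KN1 control 1, and 5101, 2668 and 3540.3 CPM in the second-named KR control 6, KN1 control 7 and LR control 5 (edgeR 1.72 ± 0.18 per unit, adjusted p = 0.015). Within each group the library of higher share was higher in mt-Nd1. That library also came from a mouse of the other sex in each group, male in KR and KN1 and female in LR. In KR it was KR control 6, which also had hair-forming transcripts. None of the mitochondrial genes was called without LR control 2, LR control 3, LR control 5 or the 2 mice with hair-forming transcripts, 2 were without KR control 4 and 3 without KR control 6.

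Cornified envelope genes ran the other way. Of 17 granular and cornified envelope genes 5 fell with the share, where 0.886% of all genes tested were lower: Lor, Cnfn, Lce1a1, Lce1b and Lce1c. Lce1m, a late cornified envelope protein outside that list, had 442 and 366 CPM in the plain LR controls 2 and 3, 280.4 and 786 CPM in the merged KR control 4 and KN1 control 1, and 128, 382 and 91.9 CPM in the second-named KR control 6, KN1 control 7 and LR control 5 (edgeR −2.15 ± 0.17 per unit, adjusted p = 0.0082). Within each group the library of higher share was lower in Lce1m, though the merged KN1 library was above both plain ones. Of 10 Lce genes tested, all had a negative coefficient, as did 7860 of all 15908 genes tested. Of the 10, 4 were called: Lce1m and, already counted above, Lce1a1, Lce1b and Lce1c. Near-identical Lce1 copies can share reads, so their single values are uncertain. No gene of the list was called without LR control 2, LR control 3 or the 2 mice with hair-forming transcripts, and without LR control 5 the list gave 2 higher and 2 lower. It gave 2 lower without KR control 4 or KR control 6, and 8 lower without KN1 control 1 or KN1 control 7.

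The 3 Lce1 genes called in that list lie in 1 stretch of chromosome 3, with Lce1a2 (not called, edgeR adjusted p = 0.076) between Lce1b and Lce1c, and all 3 fell with the share, so the 120 bases before their starts are shown (RefSeq, GRCm38.p6, 5′ to 3′ on the gene's strand). They are chr3:92648308-92648427 and chr3:92656927-92657046 on the minus strand and chr3:92679127-92679246 on the plus strand. Capitals mark CAGAGCCCAG, the longest run that these 3 sequences share, chosen from them and then searched on both strands.
Lce1a1: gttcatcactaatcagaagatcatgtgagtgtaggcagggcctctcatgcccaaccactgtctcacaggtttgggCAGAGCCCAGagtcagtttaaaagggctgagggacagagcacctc
Lce1b: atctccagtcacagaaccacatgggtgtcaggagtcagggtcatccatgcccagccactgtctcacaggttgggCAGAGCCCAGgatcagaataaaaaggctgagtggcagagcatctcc
Lce1c: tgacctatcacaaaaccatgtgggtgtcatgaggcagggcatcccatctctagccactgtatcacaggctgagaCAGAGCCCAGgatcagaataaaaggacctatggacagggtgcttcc
The run began 45, 46 and 46 bases before the starts. It was in 5 of 13 Lce1 genes in the table, which are these 3 with Lce1d and Lce1e, and in 0.475% of all 32851 starts. Lce1m, at 354 CPM on average, has no match in its 250 bases.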

How the data were processed

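Trypsin-released epidermal cells of dorsal skin were lysed, RNA was selected with oligo(dT) and 1 library per mouse was sequenced, per the labels' protocols. The authors deposited raw counts of reads per gene (21011 rows). The submitters' processing notes name STAR, HTSeq, DESeq2 and the build mm10. Versions, strandedness of counting and the role of each tool are not given in the sources used here. Where genes overlap or have close copies, their reads may therefore be split or lost, and poly(A) selection limits RNAs without a tail.

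From the deposited counts of the 7 controls, CPM used TMM factors, and TPM used merged exon lengths of GENCODE M21 (15390 rows matched by symbol and 201 by an older symbol). edgeR 4.0.16 (R 4.3.3) filtered by filterByExpr, fitted 3 group means with robust quasi-likelihood dispersion (biological coefficient of variation 0.248) and tested 2-sided. Standard errors are the log2 change over the square root of F. The fits were tested on simulated data. No list was given a test of its own. Alternatives were RLE factors, DESeq2 1.42.0, omission of the filter, a floor on mean CPM of 1, all 18 mice, covariates for the second-named share or sex, each control left out and the second-named controls left out. Omission of the 2 hair-forming libraries, of short genes, and the sex covariate for the share were added after the data were seen.

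The members and lists were chosen with earlier results of these data known. Ribosomal protein genes were taken by symbol, and kinases and a binding protein named after them were left out after the values had been seen. The text names the 25 highest, 15 most and 15 least variable genes, up to 7 genes per direction and contrast (largest change, at least 5 CPM, groups apart, ordinary symbol), up to 4 list members by level and by p, and Rbpj, Notch1, Lrig1 and Krt14. Not every gene the rule selects is printed. Coefficients of variation cover all 7 mice.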

Additional observations from a re-analysis of the deposited data

Results flagged for a closer look

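Over the 7 controls, 53 lists and genes were screened for 1 mouse far from the rest, of which chance gives about 1 in 20, and 2 were found. Dmkn, dermokine, was at 4445 TPM in LR control 5, while the other 6 mice lay between 5444 and 6097 TPM. Ptma, prothymosin alpha, was at 4487 TPM in KR control 6, while the others lay between 3129 and 3673 TPM.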

How the results depend on the processing

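This check covered the called genes named per contrast for their large change, and none of them changed direction under any alternative run. Of their values 422 kept their side of the threshold and 190 lost the call. Other genes named in the text were not part of these counts. Genes over the 3 groups numbered 2931 with DESeq2, 4264 with all 18 mice, 3654 with the share covariate, 6898 without the second-named controls and 12 to 3501 with 1 mouse left out. KR against LR gave 361, 258, 26 and 2907 in the same order, 44 with no filter, 0 with the sex covariate and 0 to 480 with 1 mouse left out. KN1 against LR gave 4556 with all 18 mice, 4630 with the share covariate, 5470 without the second-named controls and 6 to 2884 with 1 mouse left out. KR against KN1 gave 1158 with DESeq2, 2101 with all 18 mice, 2146 with the share covariate, 3940 without the second-named controls, 62 with no filter, 39 without the 2 hair-forming libraries and 4 to 2435 with 1 mouse left out. The share called 1167 with DESeq2, 451 with no filter, 1039 with all 18 mice, 1478 with the sex covariate, 0 without the hair-forming libraries and 1 to 1395 with 1 mouse left out. The cause was not tested. Of the 25 highest genes 15 stayed by CPM and 23 to 25 with 1 mouse left out. Stable genes numbered 958 at a mean of at least 50 CPM (fewer genes enter) and 1874 to 2691 with 1 mouse left out. The keratinocyte share was 80.5% to 81.5%. A lone mouse in a group was assumed to vary like the others. No paired analysis was possible because the control groups share no replicate numbers.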
